A study of Mus musculus with 5 samples.

Results

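The receptor genes followed here are 9 genes of macrophages: the Fc gamma receptor genes Fcgr1, Fcgr2b, Fcgr3 and Fcgr4, the shared signalling chain Fcer1g, the neonatal Fc receptor gene Fcgrt, and the paired immunoglobulin-like receptor genes Pirb, Sirpa and Lilrb4a. They were chosen by name as a receptor family, and all 9 were found among the 49246 genes that had a transcript in every library and among the 10770 genes tested. The cells were bone marrow-derived macrophages of wild type C57BL/6 mice, differentiated for 6 days with the growth factor CSF1 or with conditioned medium of L929 cells; the labels do not say which was used for which library. Before 24 h with 10 ng/ml of IL-4 they received solvent or CBR-5884 at 30 µM, a compound that blocks PHGDH, the enzyme that commits glucose carbon to serine synthesis. IL-4 was given to both groups, so the 3 libraries with CBR-5884 (replicates 3, 4 and 5) and the 2 libraries with solvent (replicates 3 and 5) differ by their labels in the inhibitor, and no library of cells without IL-4 was used here. CBR-5884 is a chemical inhibitor and no second inhibitor or Phgdh-deficient cells are part of the comparison. The deposited coverage and FPKM (fragments per kilobase of transcript length, relative to library depth) imply 28310000 to 30700000 fragments per library.

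Fc receptors bind the constant part of antibodies. Activating Fc gamma receptors signal through the ITAM, a tyrosine motif carried by the common chain that Fcer1g encodes, and set off phagocytosis and cytokine release. Fcgr2b is the inhibitory Fc gamma receptor and carries an ITIM, a tyrosine motif that recruits phosphatases. Paired receptors such as Pirb and Sirpa use the same inhibitory motif to read ligands on other cells, and the balance of both kinds sets how strongly a macrophage answers immune complexes.

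The signalling motifs are what divides these genes into activating and inhibitory members, and they were read from the coding sequence of the most abundant transcript of each gene (GENCODE M21, GRCm38). An ITIM was searched after the membrane span (the most hydrophobic stretch) as a tyrosine codon with a serine, isoleucine, valine or leucine codon ahead of it and an isoleucine, valine or leucine codon after it, at the spacing of the motif. The tyrosine codons are in capitals.
Fcer1g ITAM: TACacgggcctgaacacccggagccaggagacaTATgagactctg
Fcgr2b ITIM: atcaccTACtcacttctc
Pirb ITIM 1: agcctaTATgcttcagtg
Pirb ITIM 2: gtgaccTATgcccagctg
Pirb ITIM 3: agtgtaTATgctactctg
Sirpa ITIM 1: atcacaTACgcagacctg
Sirpa ITIM 2: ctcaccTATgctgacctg
Sirpa ITIM 3: tcagagTATgctagtgtc
Lilrb4a ITIM 1: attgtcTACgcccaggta
Lilrb4a ITIM 2: gtaaccTATgcccagttg
The ITAM of Fcer1g lies on the minus strand of chromosome 1 between 171229889 and 171230072, its 45 bases being split by an intron, and the ITIM of Fcgr2b lies at 170961071 to 170961088 of the same strand. Fcgr1, Fcgr3, Fcgr4 and Fcgrt held neither motif after the membrane span.

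No receptor gene passed the test between CBR-5884 and solvent (limma on log2(FPKM + 1), Benjamini-Hochberg adjusted over all genes tested, threshold 0.05). The adjusted p of the 9 genes ran from 0.126 to 0.885, where 24 of the 10770 genes tested passed (0.223%, made up of 0.0464% higher and 0.176% lower under the inhibitor). At an unadjusted p under 0.05, 3 of the 9 receptor genes were counted, 1 with a positive and 2 with a negative difference, against 19.6% of all genes tested. In 4 of the 9 genes every CBR-5884 library was below every solvent library (Fcgr1, Fcgr3, Fcgr4 and Fcgrt), where 24.9% of all genes tested showed this order, and in 1 gene, Lilrb4a, every CBR-5884 library was above, against 16.6% of all genes tested. These shares depend on how libraries are scaled: over TPM, median of ratios and quantile scaling, 18.3% to 20.8% of all genes had every CBR-5884 library below and 20.9% to 23.5% above, with 3 of the 9 receptor genes below (without Fcgr3) and 1 above. The median log2 difference of the 9 genes was -0.06 and that of all genes tested -0.03. In bulk RNA, fewer cells of a type and less RNA per cell cannot be told apart. Whether replicates were separate animals or cultures is not stated in the labels, and the p-values cover only the spread among the 5 libraries.

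**Figure D1:**
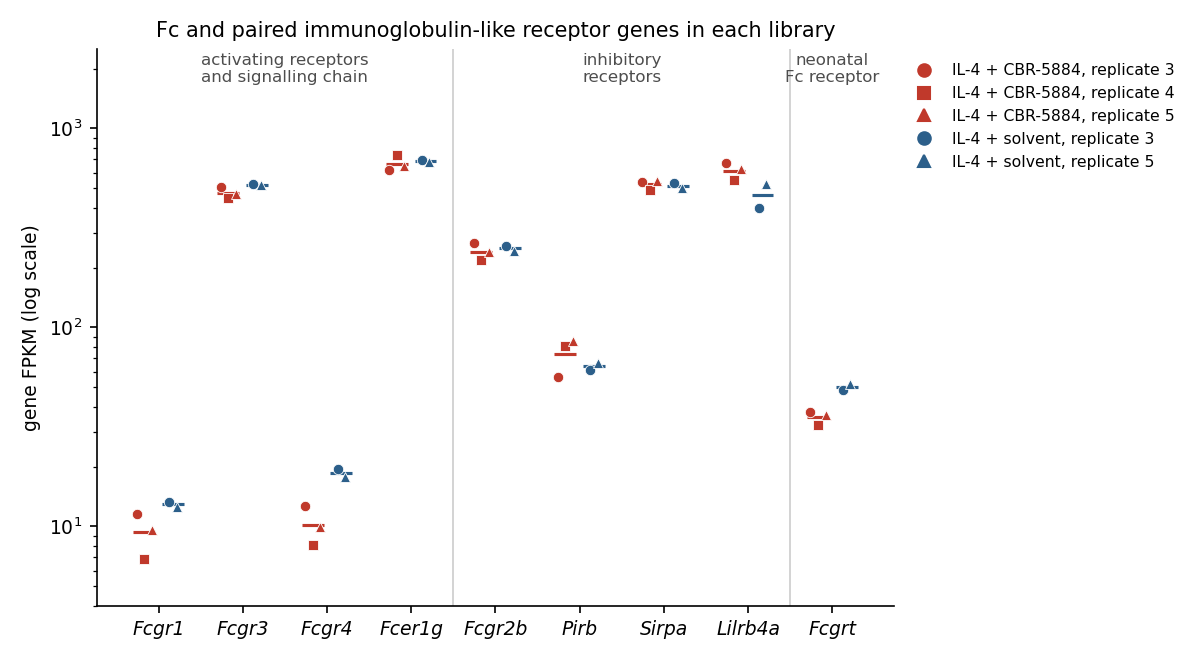
Gene FPKM (log axis) of the 9 receptor genes in each library, with red symbols for IL-4 with CBR-5884, blue symbols for IL-4 with solvent, and a bar at the mean of each group. Fcgr1 and Fcgr4 sit near 10 FPKM, Fcgr3, Fcer1g, Sirpa and Lilrb4a at about 400 FPKM or more, and the red symbols of Fcgr1, Fcgr4 and Fcgrt all lie below the blue ones.

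Among the activating receptors, Fcgr3 was by far the most abundant and Fcgr1 and Fcgr4 were scarce. Fcgr4 encodes a receptor for IgG2a and IgG2b (chromosome 1, 171018920 to 171029761, GRCm38). It was at 12.6, 8.06 and 9.91 FPKM in CBR-5884 replicates 3, 4 and 5 and at 19.4 and 17.8 FPKM in solvent replicates 3 and 5. All 3 libraries with the inhibitor were below both solvent libraries, and the means were 10.2 ± 2.29 FPKM (SD, n = 3) and 18.6 ± 1.15 FPKM (SD, n = 2). The difference was -0.82 on the log2 scale (SE 0.19, limma adjusted p = 0.149), the largest in size among the 9 genes. The implied depth behind Fcgr4 was 306 to 702 fragments per library, and the 95% interval that Cufflinks gave for it reached 8.64% to 13.4% either side of the value.

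Fcgr1 encodes the high-affinity receptor for IgG2a (chromosome 3, 96282909 to 96293969). Its level was 11.6, 6.85 and 9.65 FPKM under the inhibitor and 13.3 and 12.5 FPKM under solvent. The groups did not overlap, yet replicate 3 with CBR-5884 lay closer to the solvent libraries than to replicate 4. The log2 difference was -0.45 (SE 0.21, limma adjusted p = 0.333). It was -0.27 without CBR-5884 replicate 4 and -0.60 without CBR-5884 replicate 3. Fcgr3, the low-affinity receptor for immune complexes (chromosome 1, 171051174 to 171064935), was at 507, 446 and 468 FPKM under the inhibitor and at 524 and 520 FPKM under solvent. Its log2 difference was -0.14 (SE 0.07, limma adjusted p = 0.325), and the groups overlapped when the values were scaled to TPM, by the median of ratios or by quantiles. Of the stretches of 75 bases in the Fcgr3 transcript, 7.38% were identical in Fcgr2b, so reads from these could be placed in either gene.

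Fcer1g, without which these activating receptors neither signal nor reach the surface well, was the most abundant of the activating genes (chromosome 1, 171229572 to 171234365). It stood at 619, 732 and 648 FPKM under the inhibitor and 697 and 679 FPKM under solvent. The groups overlapped, with the highest and the lowest library both treated with the inhibitor, and the log2 difference was -0.05 (SE 0.08, limma adjusted p = 0.767). In CBR-5884 replicate 4, 83.5% of the Fcer1g FPKM sat in a transcript that Cufflinks had assembled, whereas the reference transcript Fcer1g-201 held all of it in the other 4 libraries. Over reference transcripts alone the log2 difference was -0.91 (limma adjusted p = 0.656), because that library's assembled transcript is then not counted.

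The upstream stretches of Fcgr1, Fcgr3 and Fcgr4 are shown because these 3 genes were the activating receptors whose groups did not overlap. They were taken from the RefSeq promoter table (GRCm38.p6), in which 7 of the 9 genes were found, Sirpa and Lilrb4a being the others. Each stretch is the longest part of the window without an annotated exon of the gene. The stretch of Fcgr3 is cut by an annotated Fcgr3 exon at its upstream end too. It thus lies within the annotated span of the gene (171051174 to 171064935). The motifs searched on both strands, over the 250 bases before each start, were the STAT site TTCNNNGAA, the wider spacing TTCNNNNGAA and GAGGAAG, the core bound by the macrophage factor PU.1. Matches are in capitals, with GAGGAAG read as CTTCCTC on the strand printed.
Fcgr1 chr3:96293970-96294219 minus strand: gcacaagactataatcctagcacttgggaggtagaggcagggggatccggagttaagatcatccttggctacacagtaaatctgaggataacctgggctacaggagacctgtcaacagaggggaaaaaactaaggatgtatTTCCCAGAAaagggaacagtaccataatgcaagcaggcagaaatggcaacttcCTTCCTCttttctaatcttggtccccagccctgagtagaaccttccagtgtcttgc
Fcgr3 chr1:171059404-171059626 minus strand: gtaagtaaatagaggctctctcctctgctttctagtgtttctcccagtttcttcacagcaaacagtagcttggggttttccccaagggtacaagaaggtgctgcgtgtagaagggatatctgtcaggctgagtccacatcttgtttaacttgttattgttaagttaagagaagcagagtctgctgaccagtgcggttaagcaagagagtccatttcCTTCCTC
Fcgr4 chr1:171018676-171018919 plus strand: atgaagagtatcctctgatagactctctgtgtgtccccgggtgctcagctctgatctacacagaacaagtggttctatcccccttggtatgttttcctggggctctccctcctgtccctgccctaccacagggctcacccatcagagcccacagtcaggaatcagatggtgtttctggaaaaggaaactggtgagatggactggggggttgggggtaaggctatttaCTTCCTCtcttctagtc
All 3 stretches hold GAGGAAG, as does the window of Pirb, and 10.6% of the 32851 promoters in the table hold it. The STAT site TTCNNNGAA was found in Fcgr1 alone among these genes and in 7.02% of all promoters, and TTCNNNNGAA in none of them and in 5.85% of all promoters. A match describes the letters only.

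In the gene sums, the inhibitory Fc gamma receptor did not show the gap of the scarce activating receptors. Fcgr2b (chromosome 1, 170958617 to 170976547) was at 264, 220 and 238 FPKM under the inhibitor and at 258 and 243 FPKM under solvent. Its groups overlapped, and the log2 difference was -0.06 (SE 0.09, limma adjusted p = 0.743). Over reference transcripts alone the difference was -0.31 (limma adjusted p = 0.516), and the groups overlapped there too. Exons of Fcgr2b overlap those of Gm38204 on the opposite strand by 155 nt, and whether strand was used in the estimates is not stated in the labels.

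Ratios within a library do not depend on a scaling factor per library, so the make-up of the Fc gamma receptors was also read that way. They do depend on quantile normalization and on which transcripts are counted. The summed FPKM of Fcgr1, Fcgr3 and Fcgr4 over that of Fcgr2b was 2.01, 2.10 and 2.05 with CBR-5884 and 2.16 and 2.26 with solvent. Every ratio with the inhibitor was below both solvent ratios, and the gap was of the same order as the spread within the groups. Assembled transcripts held 27.1% to 29.3% of the Fcgr2b FPKM under the inhibitor and 0% and 26.4% with solvent. Over reference transcripts alone the ratio to Fcgr2b overlapped between the groups. Fcgr4 made up 1.59%, 1.18% and 1.36% of the FPKM of the 4 receptor genes with CBR-5884 and 2.38% and 2.24% with solvent, again without overlap. Fcgr3 made up 63.7% to 65.6% of it in every library, and its groups overlapped. The ratio of Fcgr4 to Fcgr1, the scarce receptors, was 1.09, 1.18 and 1.03 with CBR-5884 and 1.46 and 1.42 with solvent. With 3 libraries against 2 an exact permutation test cannot go below a one-sided p of 0.1, so these ratios are given as values.

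**Figure D2:**
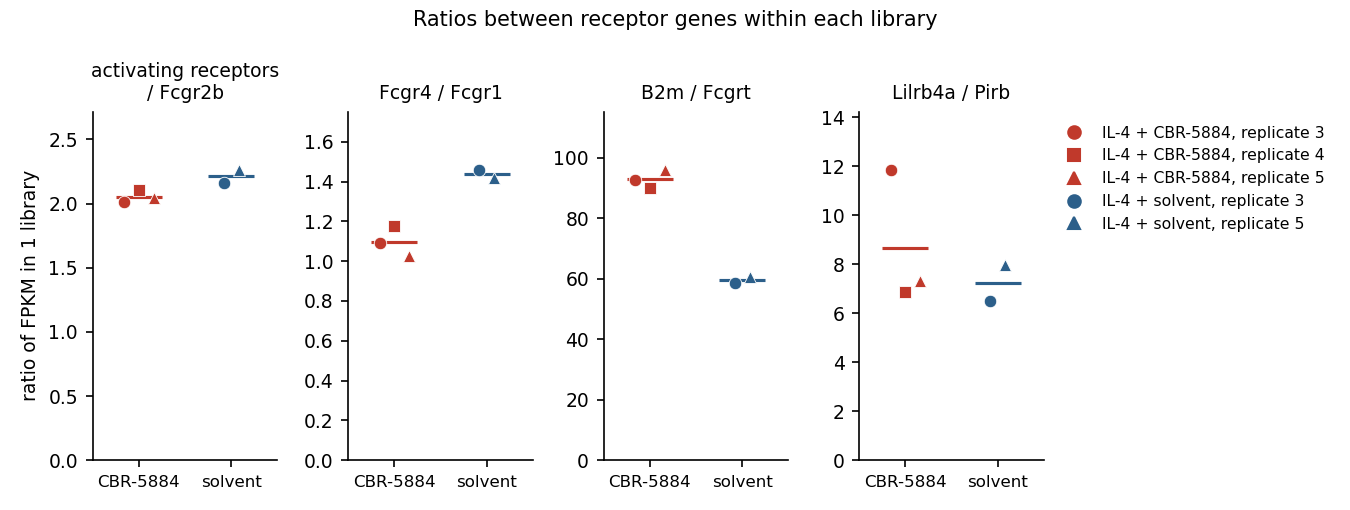
Ratios of FPKM within each library, from left to right the activating receptors over Fcgr2b, Fcgr4 over Fcgr1, B2m over Fcgrt and Lilrb4a over Pirb, with a bar at each group's mean and axes that start at 0. The B2m to Fcgrt ratio is 89.8 to 96.0 with CBR-5884 and 58.6 to 60.7 with solvent, while the Lilrb4a to Pirb ratio overlaps between the groups.

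Fcgr2b is made in forms that differ by an alternative exon in the cytoplasmic tail. The form with the exon is the main form of B cells and is held at the cell surface, and the form without it is the main form of macrophages and can be taken up with its cargo. The exon is 141 bases long and adds 47 codons (chromosome 1, 170963325 to 170963465, minus strand, GRCm38).
Fcgr2b alternative exon: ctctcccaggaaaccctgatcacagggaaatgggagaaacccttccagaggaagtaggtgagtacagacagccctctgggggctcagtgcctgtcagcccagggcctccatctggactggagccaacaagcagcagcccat
Transcripts that hold this exon made up 7.83%, 6.58% and 6.40% of the Fcgr2b FPKM under the inhibitor and 30.6% and 6.87% with solvent. Solvent replicate 3 thus stood apart from the other 4 libraries. It was also the library with no assembled Fcgr2b transcript, which in the others held 26.4% to 29.3% of the FPKM, lacked the exon and ended near the distal 3′ end of the reference transcript with the exon. What part this had in the higher share was not tested. The transcript without the exon, Fcgr2b-202, held 64.1% to 66.5% of the FPKM under the inhibitor and 69.4% and 66.7% with solvent.

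Fcgr3 also had a pair of transcripts, Fcgr3-201 and Fcgr3-204, that differ by 1 codon (chromosome 1, 171057946 to 171057948). The 3 bases are shown in capitals within their surroundings.
Fcgr3 codon: ggcagagtgCAGctcttccga
The form with the codon made up 88.3%, 88.5% and 89.7% of the Fcgr3 FPKM under the inhibitor and 86.2% and 87.7% with solvent. The groups did not overlap, and their nearest libraries, CBR-5884 replicate 3 and solvent replicate 5, differed by less than the spread within either group.

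Among the paired receptors, Lilrb4a was the member with the higher level under CBR-5884. It encodes an inhibitory receptor of myeloid cells also known as gp49B (chromosome 10, 51490956 to 51496611) and was at 668, 553 and 622 FPKM under the inhibitor and at 399 and 527 FPKM under solvent. All 3 libraries with the inhibitor were above both solvent libraries, although CBR-5884 replicate 4 and solvent replicate 5 were close. The log2 difference was 0.42 (SE 0.15, limma adjusted p = 0.249). It was 0.22 without solvent replicate 3 and 0.62 without solvent replicate 5.

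Lilrb4a has a close neighbour, Lilr4b (listed as Lilrb4b), and 19.7% of its stretches of 75 bases were identical there. In every library Cufflinks had also assembled 1 to 3 transcripts that join exons of both genes, and these held 16.5% to 40.3% of the FPKM of the locus. In solvent replicate 3 the joining transcript, at 138 FPKM, was left out because neither gene covered 50% of it. With every joining transcript counted to Lilrb4a, the gene was at 668, 888 and 622 FPKM under the inhibitor and 536 and 597 FPKM under solvent (log2 difference 0.34, limma adjusted p = 0.361). Both genes summed with every joining transcript were at 1036, 1162 and 1085 FPKM under the inhibitor and 774 and 964 FPKM under solvent (log2 difference 0.34, limma adjusted p = 0.226). The order of the groups was thus kept under each way of counting these joining transcripts, and neither passed the test. Over all alternatives run for Lilrb4a, the groups did not overlap in 18 of 19. The exception counted assembled transcripts of any length. Lilr4b alone was at 368, 609 and 462 FPKM under the inhibitor and 238 and 438 FPKM under solvent (limma adjusted p = 0.446).

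Pirb encodes the inhibitory receptor for MHC class I (chromosome 7, 3711409 to 3720391). Its level was 56.3, 80.5 and 85.1 FPKM under the inhibitor and 61.2 and 66.2 FPKM under solvent. The groups overlapped, CBR-5884 replicate 3 being the lowest of all, and the log2 difference was 0.19 (SE 0.20, limma adjusted p = 0.633). Without CBR-5884 replicate 3 it was 0.37 and the groups did not overlap (limma adjusted p = 0.268), and without CBR-5884 replicate 5 or 4, or without solvent replicate 3, it was 0.08 to 0.13. The direction depended on which transcripts were counted. The reference transcript Pirb-201 alone was at 56.3, 48.6 and 52.2 FPKM under the inhibitor and at 61.2 and 66.2 FPKM under solvent, a log2 difference of -0.28 (limma adjusted p = 0.289), since only CBR-5884 replicates 4 and 5 had an assembled Pirb transcript of at least 200 nt, at 31.9 and 32.9 FPKM. Of its stretches of 75 bases, 30.1% were identical in other genes, among them Gm14548, Pira2, Gm15922 and Gm15925, so its level is uncertain.

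Sirpa, the receptor for the "do not eat me" protein CD47 (chromosome 2, 129592835 to 129632228), was among the most even of these genes. It was at 539, 489 and 542 FPKM under the inhibitor and at 530 and 502 FPKM under solvent, and the groups overlapped. The log2 difference was 0.02 (SE 0.07, limma adjusted p = 0.885) and turned to -0.19 over reference transcripts alone. Cd47 itself, which macrophages express too, was at 136, 132 and 129 FPKM under the inhibitor and 113 and 120 FPKM under solvent (log2 difference 0.18, SE 0.05, limma adjusted p = 0.183). The ratio of Sirpa to Cd47 was 3.97, 3.72 and 4.19 with CBR-5884 and 4.69 and 4.17 with solvent, and overlapped.

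**Figure D3:**
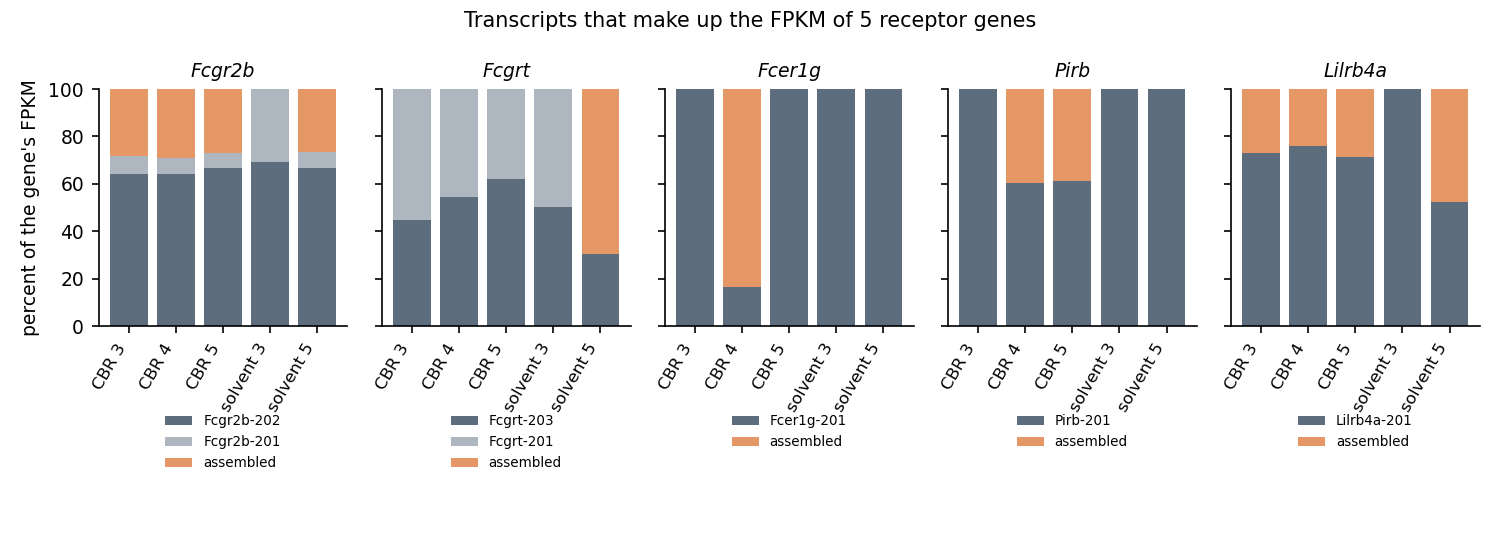
Share of each gene's FPKM held by its reference transcripts (dark and light grey) and by transcripts that Cufflinks assembled in that library (orange), for 5 receptor genes and 5 libraries. Assembled transcripts hold 83.5% of Fcer1g in CBR-5884 replicate 4 and 69.4% of Fcgrt in solvent replicate 5, and none of Fcgr2b or Lilrb4a in solvent replicate 3.

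Fcgrt had the smallest p of the 9 genes. It encodes the heavy chain of the neonatal Fc receptor (chromosome 7, 45092990 to 45103851), which pairs with beta-2 microglobulin and returns IgG and albumin from endosomes to the cell surface. Its level was 37.7, 32.5 and 36.5 FPKM under the inhibitor and 48.4 and 51.9 FPKM under solvent. Every library with the inhibitor was below both solvent libraries by more than the spread within either group, with means of 35.5 ± 2.72 FPKM (SD, n = 3) and 50.1 ± 2.45 FPKM (SD, n = 2). The log2 difference was -0.49 (SE 0.08, limma adjusted p = 0.126). The value of solvent replicate 5 rests on an assembled transcript, which held 69.4% of the FPKM, while the reference transcript Fcgrt-201 was listed at 0. Over reference transcripts alone, where that transcript is not counted, the difference turned to 0.34 (limma adjusted p = 0.761). Solvent replicate 3, at 48.4 FPKM, and the libraries with the inhibitor had no assembled Fcgrt transcript. Leaving out each library in turn gave a log2 difference of -0.54 to -0.42.

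The partner chain did not share the direction of Fcgrt. B2m was at 3485, 2919 and 3502 FPKM under the inhibitor and 2837 and 3145 FPKM under solvent, with overlapping groups (log2 difference 0.14, SE 0.11, limma adjusted p = 0.514). The ratio of B2m to Fcgrt was 92.5, 89.8 and 96.0 with CBR-5884 and 58.6 and 60.7 with solvent, a gap larger than the spread within either group. B2m also pairs with the MHC class I chains, so the ratio is not a measure of assembled receptor. The ratio also counts the assembled Fcgrt transcript of solvent replicate 5.

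**Figure D4:**
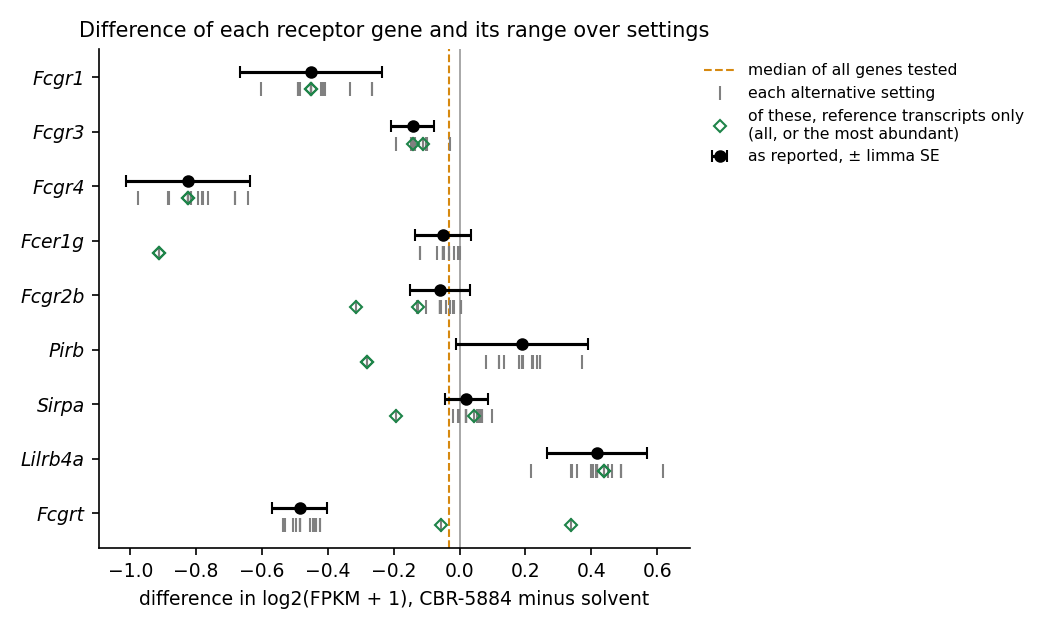
Difference in log2(FPKM + 1), CBR-5884 minus solvent, of the 9 receptor genes, with black points and limma's SE as bars, grey ticks for each alternative setting and green diamonds for the settings that count reference transcripts alone. Fcgr1, Fcgr3, Fcgr4 and Lilrb4a keep their side of 0 under all settings run, while at least 1 diamond of Pirb, Sirpa and Fcgrt lies on the other side.

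Most other Fc receptor genes were nearly silent in these cells. Of 14 listed Fc receptor, Fc receptor-like and partner genes, 11 stayed under the mean of 1 FPKM needed for the test. The 3 tested were B2m, given above, Fcrls and Trim21, and none passed. Fcrls, an Fc receptor-like scavenger gene best known from microglia, was at 54.1, 45.3 and 74.5 FPKM under the inhibitor and 104 and 131 FPKM under solvent. Its groups did not overlap, and the log2 difference was -1.03 (SE 0.24, limma adjusted p = 0.153), a larger one than that of any of the 9 receptor genes. Trim21, the Fc receptor of the cytosol, was at 7.76 to 10.1 FPKM under the inhibitor and at 8.88 and 10.1 FPKM under solvent (limma adjusted p = 0.626). The genes of the polymeric immunoglobulin receptor, Pigr, and of the IgA and IgM receptor, Fcamr, were listed at 0 in all 5 libraries.

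Other paired receptors and their ligands did not move as a group. Of 31 listed genes 26 were measured and 17 tested, none passed, and their median log2 difference was -0.03, the same as that of all genes tested. The smallest p belonged to Cd47, followed by Sirpb1c, an activating partner of Sirpa at 3.05, 2.37 and 2.28 FPKM under the inhibitor and 3.45 and 3.20 FPKM under solvent (limma adjusted p = 0.316). Siglec1, a sialic acid-binding receptor of macrophages, came next at 9.34, 4.56 and 11.2 FPKM under the inhibitor and 13.8 and 13.7 FPKM under solvent (log2 difference -0.74, SE 0.37, limma adjusted p = 0.351). Lilra6 was at 1.63 to 2.15 FPKM under the inhibitor and at 1.90 and 2.61 FPKM under solvent (limma adjusted p = 0.545), and Pira6 was not analysed here.

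Downstream of the ITAM, 17 of 34 adaptor and signalling genes had every CBR-5884 library below every solvent library and 5 had every library above, where the shares over all genes tested were 24.9% and 16.6%. None of the 34 passed the test, and their median log2 difference was -0.10. Under the other scalings 12 to 14 of the 34 had every CBR-5884 library below and 6 above, where 18.3% to 20.8% and 20.9% to 23.5% of all genes did. Syk, the kinase that docks on the phosphorylated ITAM, was at 69.3, 74.1 and 70.0 FPKM under the inhibitor and 81.2 and 87.8 FPKM under solvent (log2 difference -0.24, SE 0.06, limma adjusted p = 0.160). Lyn, a Src family kinase that phosphorylates ITAM and ITIM alike, was at 36.6, 38.3 and 37.7 FPKM under the inhibitor and 43.4 and 45.7 FPKM under solvent (log2 difference -0.24, SE 0.05, limma adjusted p = 0.136). Vav2, a guanine nucleotide exchange factor, had the smallest p of the list, at 10.5, 11.1 and 10.5 FPKM under the inhibitor and 14.3 and 14.8 FPKM under solvent (log2 difference -0.41, SE 0.05, limma adjusted p = 0.0917). In Syk, Lyn and Vav2 the gap between the groups exceeded the spread within them, and none reached the threshold.

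Another kinase and another adaptor of this step were read beside these. Fgr, a further Src family kinase, was at 6.25, 7.61 and 6.01 FPKM under the inhibitor and 9.33 and 9.65 FPKM under solvent (log2 difference -0.47, SE 0.11, limma adjusted p = 0.152). Tyrobp, the other ITAM adaptor of these cells, used by Trem2 and Sirpb1c among others, was more abundant than Fcer1g, at 1577, 1497 and 1487 FPKM under the inhibitor and 1703 and 1579 FPKM under solvent (log2 difference -0.11, SE 0.05, limma adjusted p = 0.353). The ratio of Tyrobp to Fcer1g was 2.04 to 2.55 with CBR-5884 and 2.44 and 2.32 with solvent, and overlapped.

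On the inhibitory side, 6 of 20 ITIM effector and attenuation genes had every CBR-5884 library below every solvent library and none had every library above, against the same 24.9% and 16.6%. None of the 20 passed, and the median log2 difference was -0.04. Under the other scalings 5 or 6 of the 20 were below and 0 or 1 above, and the median was -0.014 to 0.00053. Dok2, an adaptor that restrains Ras signalling, was at 61.8, 78.7 and 80.0 FPKM under the inhibitor and 108 and 117 FPKM under solvent (log2 difference -0.62, SE 0.14, limma adjusted p = 0.143). Inppl1, the lipid phosphatase SHIP2, was at 26.6, 25.7 and 29.1 FPKM under the inhibitor and 34.7 and 33.5 FPKM under solvent (log2 difference -0.32, SE 0.07, limma adjusted p = 0.140). Csk, the kinase that switches Src family kinases off, was at 72.6, 81.8 and 90.2 FPKM under the inhibitor and 102 and 107 FPKM under solvent (limma adjusted p = 0.190).

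Ptpn6 and Inpp5d, genes of phosphatases that ITIMs recruit, had smaller differences than Inppl1. Ptpn6, which encodes SHP-1, a phosphatase of Pirb and Sirpa, was at 80.7, 77.0 and 85.4 FPKM under the inhibitor and 89.8 and 90.1 FPKM under solvent (log2 difference -0.15, SE 0.06, limma adjusted p = 0.268). The groups of Ptpn6 did not overlap. Inpp5d, which encodes SHIP1, the phosphatase recruited by Fcgr2b, was at 51.1 to 55.1 FPKM under the inhibitor and 57.2 and 55.1 FPKM under solvent, and its log2 difference was -0.10 (limma adjusted p = 0.410).

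**Figure D5:**
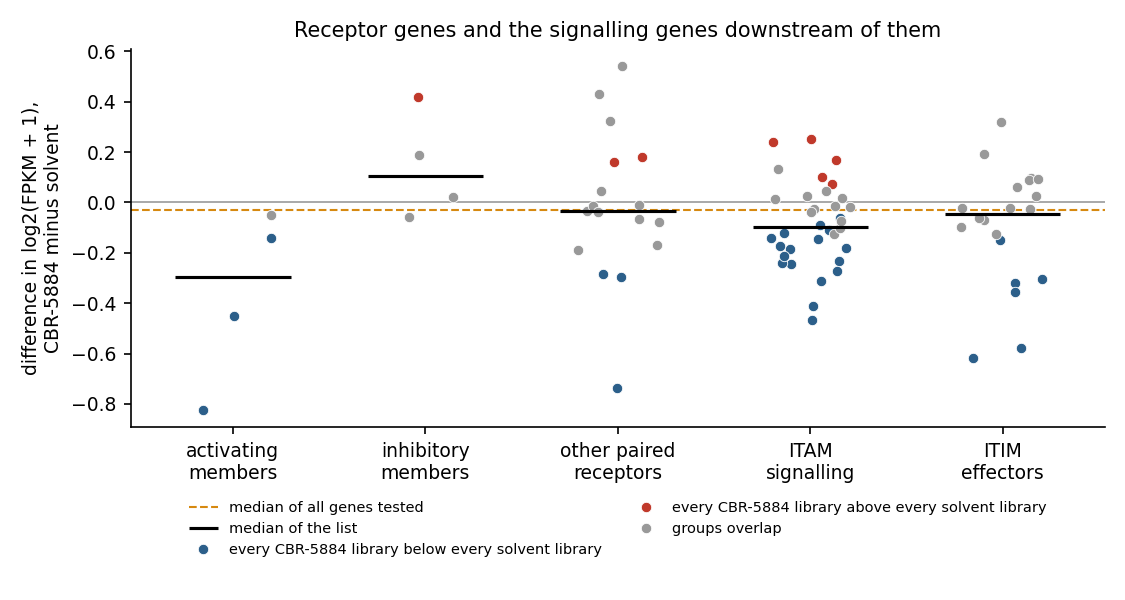
Difference in log2(FPKM + 1), CBR-5884 minus solvent, of each tested gene in 5 lists, coloured by whether the groups overlap, with a black bar at each list's median and a dashed line at the median of all genes tested (-0.03). The median is -0.30 for the 4 activating genes, 0.10 for the 4 inhibitory genes, and -0.10 and -0.04 for the ITAM and ITIM signalling genes, the last reaching 0.00053 under quantile normalization.

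The genes whose pattern over the 5 libraries was most like that of the 3 receptor genes with the largest differences were found among 5833 tested genes with a mean of at least 10 FPKM. Likeness was the root mean square difference of log2(FPKM + 1) after centring each gene. Closest to Fcgr4 were Dclre1c (0.11), the chemokine gene Ccl6 (0.11) and Gm37750 (0.14), where Fcgr4 itself had an SD of 0.45 over the libraries. Closest to Fcgrt were Slc9a9 (0.04), Ly86 (0.04) and Hes6 (0.05), with an SD of 0.25 for Fcgrt, and closest to Fcgr1 were Fam173a (0.08), Limd2 (0.09) and Rnase4 (0.09), with an SD of 0.31 for Fcgr1.

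The label of the cells was borne out by their markers. All 10 macrophage identity genes were tested, among them Csf1r at 846 to 910 FPKM under the inhibitor and 874 and 999 FPKM under solvent, and Cd68 at 1292 to 1334 FPKM under the inhibitor and 1148 and 1150 FPKM under solvent. None of the 10 passed the test. Cd68 and Itgam were higher and Cd14 and Aif1 lower under the inhibitor without overlap, and the other 6 overlapped. The T and NK cell genes Cd3e, Cd3d, Cd3g, Nkg7 and Ncr1, the mast cell genes Mcpt4, Tpsb2 and Cma1 and the neutrophil gene Ly6g were listed at 0 in every library. Of the 7 B cell genes, 6 stayed under 1 FPKM in every library. The last, Ighm, was at 2.06 to 6.11 FPKM under the inhibitor and 2.97 and 2.38 FPKM under solvent. Other marker lists were not even between the groups: the 6 monocyte genes summed to 4.98 to 6.16 FPKM under the inhibitor and 9.17 to 10.8 FPKM under solvent, and the monocyte receptor Ccr2 fell (3.45, 3.71 and 3.54 against 7.66 and 8.19 FPKM, log2 difference -0.97, SE 0.07, limma adjusted p = 0.0395). The 8 dendritic cell genes, 7 of them under 1 FPKM in every library, summed to 0.977 to 1.60 against 1.89 to 3.12 FPKM. The 6 fibroblast genes, mostly Col1a1 and Col1a2, summed to 11.0 to 17.5 against 18.2 to 19.1 FPKM. Col1a1 was lower without overlap. Col1a2 overlapped, as did the other 4, which stayed under 1 FPKM in every library. Of these, Dcn, Pdgfrb and Lum had higher means under the inhibitor and Col3a1 a lower one. The 9 neutrophil genes, mostly Mmp8, summed to 93.5 to 103 against 64.5 to 81.2 FPKM. Mmp8 alone of these was higher without overlap. Camp, Ngp and Ltf, each with a mean under 1 FPKM, were lower without overlap, and the other neutrophil genes overlapped. The part of these shifts in the differences of Fcgr1, Fcgr4, Fcgrt and Lilrb4a was not tested.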

How the data were processed

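RNA from 5 libraries was sequenced as single reads of 75 bp from a directional kit, per the labels' protocols. The submitters' processing notes name Bowtie2, TopHat2, Cufflinks and genome build mm10 (GRCm38); their versions, the annotation release and the use of strand are not stated there. The deposited values are FPKM per transcript, estimated by the authors with Cufflinks in each library on its own, for Ensembl reference transcripts and transcripts assembled from the reads, with no recorded normalization between libraries. GENCODE M21 gave the gene of each reference transcript (99.5% matched in each library). Assembled transcripts of at least 200 nt were assigned to the gene on their strand holding at least 50% of their exonic bases, and a gene's FPKM is the sum. Shorter or unassigned transcripts, 64.0% to 70.3% of the summed FPKM per library, were left out; short transcripts receive very high FPKM.

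Genes with a mean of at least 1 FPKM were fitted with limma 3.58.1 (R 4.3.3; two-sided, with eBayes and a trend in the variance) on log2(FPKM + 1), which understates changes of low genes, with Benjamini-Hochberg adjustment over all genes tested. The script was tested on simulated data. Lists are described by counts and medians. Named were all 9 receptor genes, the called genes and the 3 with the smallest p of each receptor or signalling list, and 11 genes set for their role, of which 1 is not reported here. The receptor genes, lists and this rule were chosen with earlier results of these data known. Replicate numbers were not used as pairs. The deviations of same-numbered libraries from their group means correlated at 0.07 and 0.08, over 2 pairs. The deviations of the 2 solvent libraries mirror each other, so these values are not independent and cannot decide whether the libraries were paired. Between libraries Pearson's r of log2 FPKM across genes was 0.925 to 0.937 within and 0.911 to 0.928 between groups. Alternatives were another pseudocount (0.1, 5), no filter or a filter at 5, reference transcripts alone, other scalings, no variance trend, the replicate block and leaving out each library.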

Additional observations from a re-analysis of the deposited data

How the results depend on the processing

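No receptor gene passed the threshold under any alternative run, and Fcgr1, Fcgr3, Fcgr4 and Lilrb4a kept their direction in all of theirs. Counting assembled transcripts of any length, and the ways to count the transcripts joining Lilrb4a and Lilr4b, were chosen after seeing the data. Over reference transcripts alone the difference was -0.31 for Fcgr2b, -0.28 for Pirb (also with its most abundant one), -0.19 for Sirpa and 0.34 for Fcgrt. Assembled transcripts are then not counted. The medians were then -0.64 for the activating genes (also with the most abundant one) and -0.24 for the inhibitory genes (-0.0425 with the most abundant one). Under the replicate block, Fcgr2b was at 0.0044, and 2 genes were called higher and 1 lower. Leaving out each library in turn gave -0.12 to 0.0014 for Fcer1g, -0.13 to 0.0044 for Fcgr2b, -0.0201 to 0.067 for Sirpa, 0.08 to 0.37 for Pirb, -0.60 to -0.27 for Fcgr1, and medians of -0.40 to -0.19 for the activating, 0.0365 to 0.18 for the inhibitory, -0.0527 to 0.0307 for the other paired receptor and -0.097 to -0.0213 for the ITIM genes. The median of the other paired receptors was 0.0103 under TPM, and that of the ITAM genes -0.0579 under TPM and -0.0383 under quantile normalization. Against 5 genes called higher and 19 lower, 3 were higher with a pseudocount of 5, 11 lower with 0.1, 3 higher and 6 lower at a mean of at least 5 FPKM, 33 lower with no filter, and 19 and 14 higher over all or the most abundant reference transcripts; leaving out each library gave 8 to 11 higher and 11 to 78 lower, the last without solvent replicate 3. The cause of these shifts in counts was not tested. Fcgr1 and Fcgr4 had 306 to 991 implied fragments per library, and Cufflinks' intervals reached 6.60% to 8.82% either side of Fcgr1 and 8.64% to 13.4% of Fcgr4.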

Other observations

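Transcripts under 200 nt were left out of the gene sums, and 2 of the receptor genes had such transcripts. Within Pirb (chromosome 7, 3720139 to 3720253, GRCm38) all 5 libraries listed an assembled transcript of 110 to 115 nt, at 743, 891 and 789 FPKM with CBR-5884 and 601 and 763 FPKM with solvent. These values are several times the FPKM of Pirb itself, but transcripts this short receive very high FPKM. The implied depth was 1908 to 3018 fragments, against 5618 to 7169 for Pirb-201. Cufflinks' intervals reached 34.2% to 45.9% either side of the short transcripts. Within Lilrb4a (chromosome 10, 51491059 to 51491196) a transcript of 136 or 137 nt was listed in CBR-5884 replicate 5 at 438 FPKM and in solvent replicate 3 at 184 FPKM, and in no other library.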
